A study of Homo sapiens with 12 samples.

Results

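Expression of 10 genes of tryptophan breakdown and use was followed in 624Mel cells, an established human melanoma line. The genes were IDO1, IDO2, TDO2, KYNU, KMO, AADAT, KYAT1, HAAO, QPRT and WARS1, and were chosen by name as the enzymes of the kynurenine pathway together with the interferon-inducible tryptophanyl-tRNA synthetase, and all 10 were found among the 40173 gene IDs of the expression table. Of these, 6 reached a mean of at least 2 TPM (a transcript abundance scaled by length and by the library's total) in at least 1 condition and entered the test across 12773 gene IDs. KYNU, KMO, HAAO and IDO2 stayed below 2 TPM in all 12 libraries and are given by their levels. IDO1 and TDO2 passed the minimum only through the conditions in which they were high.

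The RNA-seq experiment was designed to ask how loss of MITF, the transcription factor of the melanocyte lineage, alters the response to interferon gamma (IFNγ). Cells received either a control siRNA (siCTRL) or an siRNA against MITF (siMITF), and after 24 h they were left without IFNγ or given 5 ng/mL IFNγ for 24 h. This gave 3 libraries for each of 4 conditions, named siCTRL and siMITF without the cytokine and siCTRL+IFNγ and siMITF+IFNγ with it. All cells were thus transfected, MITF was targeted by a single siRNA, and the knockdown was transient and began before the cytokine. The RNA came from whole cultures, so a smaller number of expressing cells and less RNA per cell cannot be told apart.

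Tryptophan is degraded mainly along the kynurenine pathway. The first and rate-limiting step opens the indole ring and is carried out by indoleamine 2,3-dioxygenase, encoded by IDO1, by its weak paralogue IDO2, or by tryptophan 2,3-dioxygenase, encoded by TDO2, which is best known as the liver enzyme. Kynurenine then goes to kynurenic acid through aminotransferases or, through KMO, KYNU, HAAO and QPRT, towards NAD, and it can activate the aryl hydrocarbon receptor. IDO1 is a classical IFNγ-induced gene, and tryptophan depletion and kynurenine are known to restrain T cells in tumours.

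MITF was at 187, 229 and 217 TPM in the siCTRL libraries and at 36.0, 49.7 and 41.7 TPM in the siMITF libraries, a log2 difference of -2.29 (SE 0.19, limma adjusted p = 1.157e-06). With IFNγ the difference was -2.14. The 5 melanocytic markers PMEL, MLANA, TYR, DCT and SOX10 summed to between 5260 and 6994 TPM in the siCTRL and siCTRL+IFNγ libraries and to between 1373 and 1747 TPM after siMITF. Markers of leukocytes, fibroblasts, keratinocytes, endothelium and hepatocytes, 10 genes, summed to 3.95 to 4.28 TPM in siCTRL, 2.92 to 3.66 in siCTRL+IFNγ, 1.68 to 2.45 in siMITF and 2.72 to 3.204 in siMITF+IFNγ, with CD3E, a T cell marker, listed at 0 in every library. Among the 10, ITGAX, a dendritic cell marker, was at 2.32 to 2.53 TPM in siCTRL and 1.52 to 1.81 in siCTRL+IFNγ. It was at 0.396 to 0.472 TPM in siMITF and 0.495 to 0.591 in siMITF+IFNγ. Its siMITF difference without IFNγ was -1.27 on the log2(TPM + 1) scale (limma adjusted p = 5.828e-07). The libraries had 11850 to 12377 genes at 2 TPM or more, and a mitochondrial share of 7.42% to 16.9%. The number of reads behind a TPM value is unknown, so no counting error is given.

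IDO1 (ENSG00000131203, chr8:39902275-39928790, plus strand, GRCh38) was near 0 without IFNγ and was among the most strongly induced transcripts with it. In siCTRL libraries it was at 0.00671, 0.0142 and 0.0237 TPM, and in siCTRL+IFNγ libraries at 85.9, 94.9 and 78.9 TPM. The siMITF libraries had 0.120, 0.346 and 0.0157 TPM and the siMITF+IFNγ libraries 133, 128 and 106 TPM. Every library with IFNγ lay far above every library without it, and the siMITF+IFNγ libraries lay above all siCTRL+IFNγ libraries, whereas siCTRL and siMITF overlapped. On the log2(TPM + 1) scale the IFNγ difference was 6.43 in siCTRL cells (SE 0.12, adjusted p = 1.338e-12) and 6.73 in siMITF cells (SE 0.12, adjusted p = 6.952e-13), in each case the 7th highest of the 12773 genes. Because the untreated level is close to 0, the size of this difference depends on the value added before taking logs, and it ran from 6.31 to 9.56 in siCTRL cells over the alternative settings. Under IFNγ, siMITF cells had 1.41 times the mean TPM of siCTRL cells, a log2 difference of 0.49 (SE 0.12, adjusted p = 0.00849) that passed the test but not the required size of 1. With a pseudocount of 0.1 the difference was 0.50 and did not pass (limma adjusted p = 0.309). Without IFNγ the siMITF difference of IDO1 was 0.18 (SE 0.12, adjusted p = 0.283), and with a pseudocount of 0.1 it was 0.97 (adjusted p = 0.0473), at levels of 0.346 TPM or less in every library.

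IDO2 (ENSG00000188676, chr8:39934614-40016392, plus strand), the neighbour of IDO1 on the chromosome, followed the same order at a far lower level. It was at 0.0254, 0.0636 and 0.0665 TPM in siCTRL, 0.222, 0.235 and 0.264 in siCTRL+IFNγ, 0.1, 0.0599 and 0.0723 in siMITF, and 0.358, 0.340 and 0.270 in siMITF+IFNγ. The libraries with IFNγ did not overlap those without it. In a fit without a minimum level, IFNγ gave log2(TPM + 1) differences of 0.24 in siCTRL and 0.30 in siMITF cells (limma adjusted p = 0.00101 and 1.660e-04). The means with IFNγ, 0.240 and 0.323 TPM, remained below 1% of the IDO1 means.

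TDO2 (ENSG00000151790, chr4:155854738-155920406, plus strand) followed the siRNA and not the cytokine. It was at 0.844, 1.03 and 0.763 TPM in siCTRL and at 0.715, 1.40 and 1.24 TPM in siCTRL+IFNγ, against 9.59, 9.02 and 7.13 TPM in siMITF and 7.70, 10.1 and 8.55 TPM in siMITF+IFNγ. The siMITF libraries lay above all siCTRL libraries with or without IFNγ, while the libraries with and without IFNγ overlapped for either siRNA. The siMITF difference was 2.34 on the log2(TPM + 1) scale without IFNγ (SE 0.15, adjusted p = 1.546e-07) and 2.22 with IFNγ (SE 0.15, adjusted p = 2.812e-07), the 25th and 27th highest of all tested genes. The IFNγ difference was 0.16 in siCTRL cells (95% interval -0.17 to 0.49, adjusted p = 0.553) and 0.03 in siMITF cells (-0.30 to 0.36, adjusted p = 0.903). ALB, the hepatocyte marker among the 10 markers of other cell types, was listed at 0 to 0.131 TPM over all 12 libraries.

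**Figure D1:**
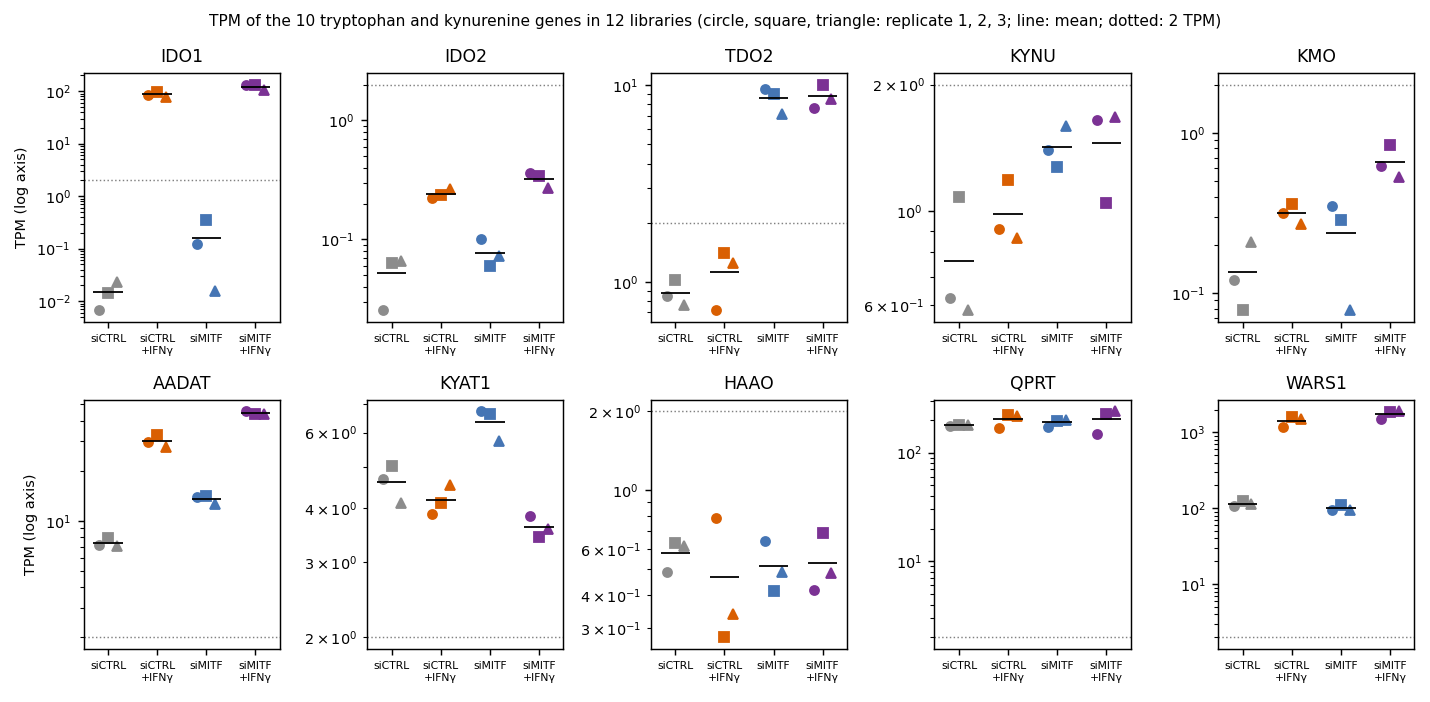
TPM of the 10 genes (log axis, a separate range for each gene) in the 12 libraries, grouped by condition; circle, square and triangle are replicates 1, 2 and 3, the line is the mean, and the dotted line marks 2 TPM. IDO1, AADAT and WARS1 are high in the 6 libraries with IFNγ, TDO2 is high in the 6 siMITF libraries, and KYNU, KMO, HAAO and IDO2 lie below 2 TPM throughout.

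The make-up of the entry-step transcripts differed between conditions. IDO1, IDO2 and TDO2 summed to 0.944 ± 0.138 TPM in siCTRL, 87.9 ± 8.15 in siCTRL+IFNγ, 8.82 ± 1.40 after siMITF and 131 ± 14.8 in siMITF+IFNγ (SD, n = 3). TDO2 made up 92.9% ± 3.45 of this sum in siCTRL and 97.4% ± 1.57 in siMITF. With IFNγ, IDO1 made up 98.5% ± 0.415 in siCTRL cells and 93.0% ± 1.12 in siMITF cells, where TDO2 held 6.74% ± 1.12. TDO2 held 0.824% to 1.54% of the sum in the siCTRL+IFNγ libraries and 5.44% to 7.47% in the siMITF+IFNγ libraries, so these ranges did not overlap.

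Of the aminotransferases that turn kynurenine into kynurenic acid, AADAT (ENSG00000109576, chr4:170060222-170091699, minus strand), which encodes kynurenine aminotransferase II, was higher with either treatment and highest with both. It was at 7.16, 7.93 and 7.03 TPM in siCTRL, 29.6, 32.8 and 27.6 in siCTRL+IFNγ, 13.9, 14.1 and 12.6 in siMITF, and 45.4, 43.8 and 43.9 in siMITF+IFNγ. No library of one condition reached the range of another. IFNγ gave a log2(TPM + 1) difference of 1.89 in siCTRL cells (SE 0.09, adjusted p = 4.607e-09) and 1.64 in siMITF cells (SE 0.09, adjusted p = 1.678e-08). The siMITF difference was 0.80 without IFNγ (SE 0.09, adjusted p = 1.442e-05) and 0.55 with it (SE 0.09, adjusted p = 3.201e-04), both past the p threshold and under the required size.

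KYAT1 (ENSG00000171097, chr9:128832942-128882494, minus strand), kynurenine aminotransferase I, showed another order, with its highest level in siMITF and its lowest in siMITF+IFNγ. It was at 4.68, 5.02 and 4.11 TPM in siCTRL, 3.88, 4.11 and 4.54 in siCTRL+IFNγ, 6.72, 6.64 and 5.72 in siMITF, and 3.83, 3.42 and 3.58 in siMITF+IFNγ. The siMITF libraries lay above and the siMITF+IFNγ libraries below all the others. In siMITF cells IFNγ lowered KYAT1 by a log2(TPM + 1) difference of -0.67 (SE 0.10, adjusted p = 5.151e-04), beside -0.11 in siCTRL cells (95% interval -0.34 to 0.11, adjusted p = 0.534). The siMITF difference of KYAT1 without IFNγ was 0.39 (SE 0.10, adjusted p = 0.00974, and 0.0519 without siCTRL replicate 3). The difference between the IFNγ values in the 2 kinds of cells, the interaction, was -0.56 (SE 0.14, unadjusted p = 0.00218, limma), and it did not pass the test across all genes (adjusted p = 0.134, or 0.0757 when replicate number was a block in the fit). Together with KYAT3, another kynurenine aminotransferase, the AADAT and KYAT1 transcripts summed to 38.6 ± 0.785 TPM in siCTRL, 69.6 ± 4.06 in siCTRL+IFNγ, 47.9 ± 2.03 after siMITF and 90.0 ± 3.66 with both (SD, n = 3). The share of AADAT in that sum was 19.1%, 43.1%, 28.3% and 49.3%, and the share of KYAT1 was 11.9%, 6.01%, 13.3% and 4.01%, in the same order.

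The branch from kynurenine towards NAD was low in its steps before QPRT. KMO (ENSG00000117009, chr1:241532134-241595642, plus strand), kynurenine 3-monooxygenase, had means of 0.136, 0.315, 0.237 and 0.661 TPM in siCTRL, siCTRL+IFNγ, siMITF and siMITF+IFNγ. Its siMITF+IFNγ libraries, at 0.617, 0.839 and 0.526 TPM, lay above all others, and its siMITF libraries ranged from 0.078 to 0.347 TPM and overlapped both siCTRL conditions. KYNU (ENSG00000115919, chr2:142877657-143055833, plus strand), kynureninase, had means of 0.763 ± 0.277, 0.986 ± 0.174, 1.42 ± 0.164 and 1.46 ± 0.355 TPM, and HAAO (ENSG00000162882, chr2:42767089-42792593, minus strand), 3-hydroxyanthranilate dioxygenase, 0.579 ± 0.0774, 0.466 ± 0.278, 0.514 ± 0.117 and 0.530 ± 0.143 TPM (SD, n = 3). For HAAO all 4 conditions overlapped. For KYNU the siMITF libraries lay above the siCTRL libraries, whereas the siMITF+IFNγ and siCTRL+IFNγ libraries overlapped. In the fit without a minimum level the KYNU difference for siMITF without IFNγ was 0.47 (limma adjusted p = 0.0478), and the KMO difference for IFNγ in siMITF cells was 0.43 (limma adjusted p = 0.0180). With IFNγ the IDO1 to KYNU ratio was 88.6 ± 7.50 in siCTRL cells (80.1 to 94.3) and 88.8 ± 30.3 in siMITF cells (63.2 to 122, SD, n = 3), so the means are close and the spread in siMITF cells is wide.

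QPRT (ENSG00000103485, chr16:29663279-29698699, plus strand), the phosphoribosyltransferase that forms the NAD precursor from quinolinic acid, was by contrast abundant in every library. It was at 175, 179 and 179 TPM in siCTRL, 168, 221 and 219 in siCTRL+IFNγ, 173, 195 and 201 in siMITF, and 148, 227 and 239 in siMITF+IFNγ. All conditions overlapped, and replicate 1 was the lowest library of each. No comparison of all libraries passed the test, and the log2(TPM + 1) differences had 95% intervals of -0.17 to 0.52 for IFNγ in siCTRL cells, -0.26 to 0.43 for IFNγ in siMITF cells, -0.26 to 0.44 for siMITF without IFNγ and -0.35 to 0.34 for siMITF with it. Differences within these intervals remain compatible with the 3 libraries per condition. The combination against siCTRL gave 0.17 (adjusted p = 0.409), and 0.39 (adjusted p = 0.0139) without siMITF+IFNγ replicate 1.

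WARS1 (ENSG00000140105, chr14:100333790-100376805, minus strand) encodes the cytosolic synthetase that loads tryptophan onto its tRNA, and is a long-known IFNγ-induced gene. It was at 106, 125 and 115 TPM in siCTRL and 94.0, 111 and 96.3 TPM in siMITF, and at 1169, 1574 and 1487 TPM in siCTRL+IFNγ and 1517, 1849 and 1886 TPM in siMITF+IFNγ. With IFNγ it was the most abundant of the 10 genes. IFNγ gave a log2(TPM + 1) difference of 3.59 in siCTRL cells (SE 0.12, adjusted p = 2.125e-10) and 4.11 in siMITF cells (SE 0.12, adjusted p = 4.688e-11), or 12.2 and 17.4 times the untreated mean TPM.

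The siMITF difference of WARS1 was -0.20 without IFNγ (SE 0.12, adjusted p = 0.237) and 0.32 with IFNγ (SE 0.12, adjusted p = 0.0618), and the interaction was 0.51 (SE 0.17, unadjusted p = 0.0106, limma adjusted p = 0.337). In TPM, siMITF minus siCTRL libraries of the same replicate number gave -12.3, -13.5 and -18.4 without IFNγ and 348, 275 and 399 with IFNγ. All 3 numbers thus had a lower value without and a higher value with the cytokine, although the libraries of each pair of conditions overlapped. When replicate number was added to the limma fit as a block, the adjusted p was 0.0239 without IFNγ, 0.00154 with IFNγ and 0.0112 for the interaction. Centring each library on its median gave 0.0107, 0.00199 and 0.00859. The interaction remained under the required size of 1 in all of these fits.

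The rest of the enzyme family was read beside WARS1. Of 19 other cytosolic aminoacyl-tRNA synthetases, which load the other amino acids, 18 were tested and none was called with IFNγ (limma, 3 of 18 with an unadjusted p under 0.05 in siCTRL and 5 of 18 in siMITF cells). An adjusted p under 0.05 was reached by 2 of the 18 in siCTRL and 1 in siMITF cells, against 12.9% and 20.2% of all tested genes. The log2(TPM + 1) differences of the 18 ran from -0.39 to 0.06 with a median of -0.18 in siCTRL cells and from -0.57 to 0.18 with a median of -0.15 in siMITF cells, beside medians of -0.07 and -0.10 over all 12773 genes. WARS2, which encodes the mitochondrial enzyme for the same amino acid, differed by -0.07 (95% interval -0.31 to 0.16) in siCTRL and by 0.00 (-0.24 to 0.23) in siMITF cells. WARS1 was at 0.816 ± 0.0118 times the median TPM of the other synthetases in siCTRL, 11.3 ± 0.313 in siCTRL+IFNγ, 0.785 ± 0.0749 after siMITF and 14.8 ± 0.788 in siMITF+IFNγ (SD, n = 3). It held 4.19%, 37.3%, 4.05% and 44.7% of the summed TPM of the cytosolic synthetases in that order. With siMITF the one synthetase called was GARS1, the glycyl-tRNA synthetase, which fell by 1.29 without and by 1.09 with IFNγ on the log2 scale (adjusted p = 1.815e-07 and 8.474e-07). NARS1, the asparaginyl-tRNA synthetase, was lower with siMITF by -0.58 (adjusted p = 0.0128) and in the combination by -0.68 (adjusted p = 0.00367).

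**Figure D2:**
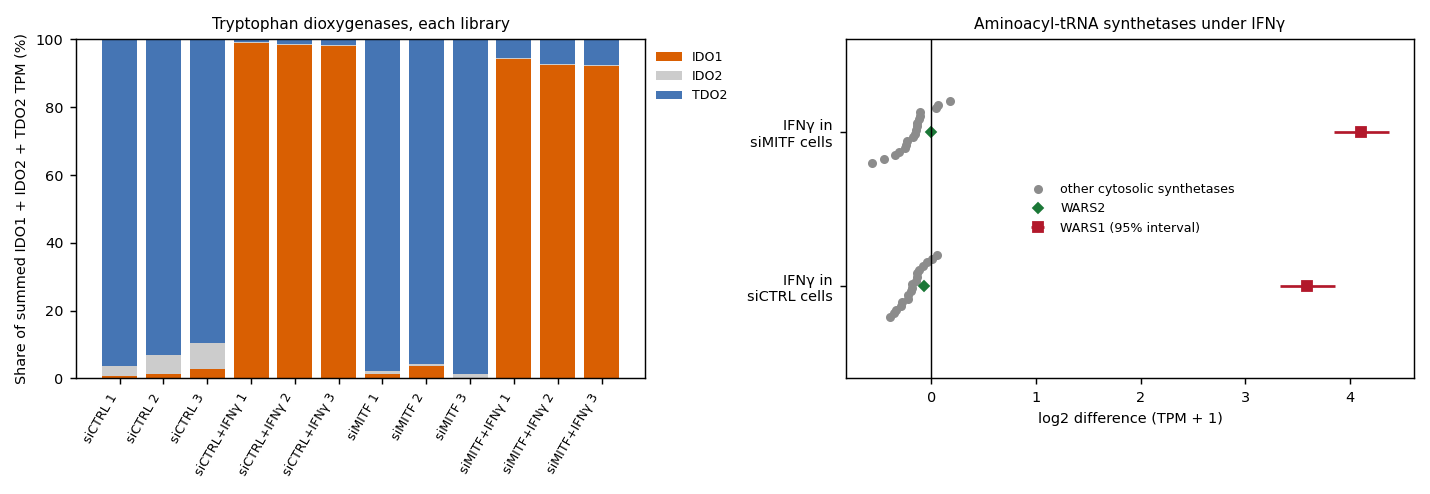
Left, the share (%) of IDO1, IDO2 and TDO2 in their summed TPM in each library, with IDO1 over 90% in all 6 libraries with IFNγ and TDO2 the largest share in all others. Right, limma log2(TPM + 1) differences for IFNγ of WARS1 (square, line: 95% interval), WARS2 (diamond) and the 18 other tested cytosolic synthetases (circles), where WARS1 is at 3.59 and 4.11 and the others lie between -0.57 and 0.18.

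The 250 bases before the annotated start sites of the genes were searched on both strands for the sites of the IFNγ-activated factors, GAS (TTCNNNGAA), the core of the interferon-stimulated response element (ISRE core, GAAA repeated after any 2 bases), and the E-box sequences CACGTG and CATGTG that MITF can bind. RefSeq start sites on GRCh38.p14 gave 14 windows for 8 of the genes. IDO1 and IDO2 were not searched here, so nothing is said of their windows. GAS was in 3, the ISRE core in 2, CATGTG in 2 and CACGTG in 0 of them, against 6.57%, 3.02%, 9.42% and 6.34% of all 35116 windows. The matches are shown as stretches of 30 bases on the strand of the gene with the matching letters in capitals, so that those at the induced WARS1 can be set beside those at the other genes.
WARS1 GAS, chr14:100375470-100375499, minus strand: gctcaagtgtTTCTGAGAAtctgggtgatt
WARS1 ISRE core, chr14:100375383-100375412, minus strand: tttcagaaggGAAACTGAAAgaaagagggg
KYNU GAS, chr2:142877620-142877649, plus strand: gtctgagcagTTCTTTGAAtttctcaccct
KYAT1 GAS, chr9:128845853-128845882, minus strand: gaccaggtcaTTCAGGGAAtgaaatggaag
KYAT1 ISRE core, chr9:128882628-128882657, minus strand: ggaaatctttGAAAAAGAAAtggcaaggag
KYNU CATGTG, chr2:142877511-142877540, plus strand: ggtgggcaggagCACATGttgcttaaattt
QPRT CATGTG, chr16:29678864-29678893, plus strand: ctcaccagggagCACATGcttacattcaca

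Both WARS1 matches lie before its downstream start site, at 142 and 55 bases upstream of it, and inside exons of other annotated WARS1 transcripts. Among the windows of the 8 genes searched, that was the one with both GAS and the ISRE core, a combination found in 0.310% of all windows. The window before the upstream WARS1 start held none of these letters. KYNU, with GAS at 34 bases upstream, differed by 0.18 (95% interval -0.13 to 0.49) with IFNγ in siCTRL cells in the fit without a minimum level, so a match was also found at a gene with no IFNγ difference that passed the test. AADAT, which rose with IFNγ, had no match in any of its 3 windows.

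The window before the RefSeq start of TDO2, which rose with siMITF, is shown up to the first annotated exon that overlaps it. It has no capitals because it held none of the 4 patterns on either strand. The GENCODE position of the gene begins further upstream, at 155854738, and the bases before that position were not searched.
TDO2 window, chr4:155903446-155903692, plus strand: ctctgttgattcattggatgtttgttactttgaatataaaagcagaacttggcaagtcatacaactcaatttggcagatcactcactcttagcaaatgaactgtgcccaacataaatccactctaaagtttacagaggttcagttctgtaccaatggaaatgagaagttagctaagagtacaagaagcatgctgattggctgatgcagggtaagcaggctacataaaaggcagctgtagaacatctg

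Over the 6 tested genes, 3 were called higher with IFNγ in siCTRL cells (IDO1, AADAT and WARS1), against 2.42% of all tested genes called higher there. The same 3 were called in siMITF cells, against 2.72%. With siMITF, TDO2 was called higher without IFNγ, against 3.22% of all genes, and also with IFNγ, against 3.12%. The combination of both treatments against siCTRL called IDO1 (6.92), TDO2 (2.38), AADAT (2.44) and WARS1 (3.91) higher, with limma adjusted p of 5.013e-13, 6.569e-08, 2.317e-10 and 5.808e-11, against 5.61% of all genes. None was called lower in any comparison. IDO1 and TDO2 had passed the minimum level only through the conditions in which they were high. The genes were also chosen with earlier results of these data known. The counts of calls are therefore a description and no test of the genes as a set. Without the size limit, 3 of the 6 had an adjusted p under 0.05 for IFNγ in siCTRL cells (12.9% of all tested genes did), 4 for IFNγ in siMITF cells (20.2%), 3 for siMITF without IFNγ (34.8%), 3 for siMITF with IFNγ (33.1%) and 5 for the combination (44.5%). The libraries of the conditions compared did not overlap for 3, 4, 3, 4 and 5 of the 6 in the same order, against 29.7%, 40.5%, 55.0%, 38.3% and 53.1% of all tested genes. The counts for siMITF are thus read against a background in which a large share of all genes differed. KYAT1 was lower in the combination by -0.28 (adjusted p = 0.0417), under the required size, and the p rose past 0.05 in 9 alternative fits. With all libraries it was 0.0637 without a minimum level and 0.0909 with only the conditions compared, and in 7 fits that left out 1 library it reached 0.141 at most, without siCTRL replicate 2. Comparisons that share a condition share its libraries and are not independent of each other.

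**Figure D3:**
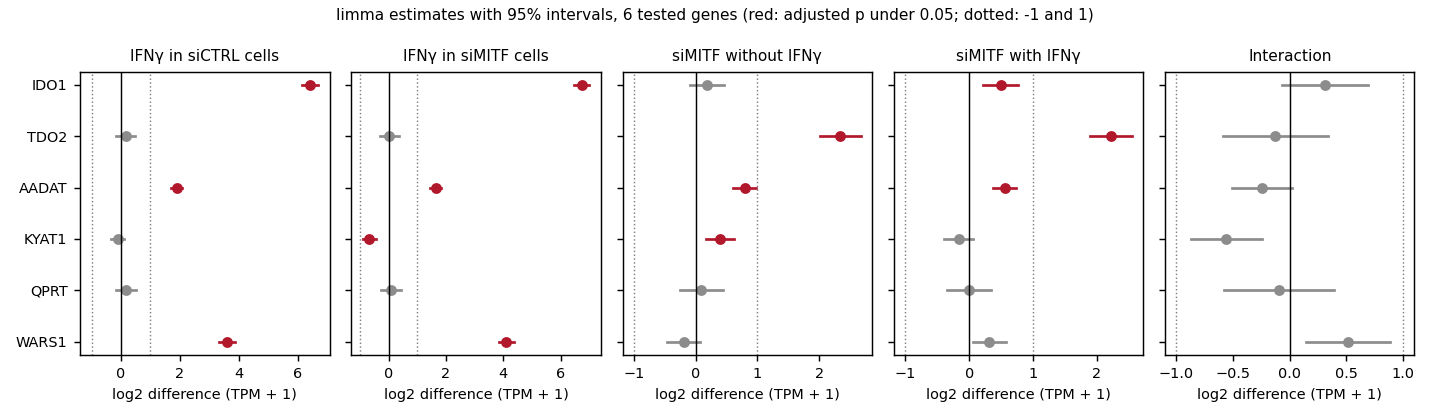
limma log2(TPM + 1) differences with 95% intervals for the 6 tested genes in 4 comparisons and the interaction (a separate axis range for each panel), red where the adjusted p was under 0.05 and with dotted lines at -1 and 1. IDO1, AADAT and WARS1 lie above 1 in both IFNγ panels, TDO2 above 1 in both siMITF panels, and no interaction is red.

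No member was called for the interaction of siMITF and IFNγ, for which 0.478% of all tested genes were called and 0.947% had an adjusted p under 0.05. At an unadjusted p under 0.05 there were 2 of the 6, KYAT1 and WARS1, against 7.67% of all tested genes. The interaction was 0.31 for IDO1 (95% interval -0.07 to 0.69, adjusted p = 0.793), -0.24 for AADAT (-0.51 to 0.02, adjusted p = 0.718), -0.13 for TDO2 (-0.59 to 0.33, adjusted p = 0.987) and -0.10 for QPRT (-0.58 to 0.39, adjusted p = 0.993). On the linear TPM scale, which asks another question, the siMITF+IFNγ level minus the level to which the single effects add up gave 47.4, 32.7 and 26.8 TPM for IDO1, 9.03, 4.84 and 10.7 for AADAT, and 361, 288 and 417 for WARS1 when libraries were taken by replicate number. For TDO2 it gave -1.75, 0.71 and 0.94 TPM, of mixed sign, and for KYAT1 -2.08, -2.32 and -2.57 TPM. AADAT thus lay above the sum in TPM and had an interaction below 0 on the log2 scale, and the interaction was not called.

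Genes around the pathway were read from named lists, which were chosen with earlier results of these data known. Of 7 transporters of tryptophan and related amino acids, 6 were tested and none was called with IFNγ (limma, 4 of 6 with an unadjusted p under 0.05 in siCTRL and 3 of 6 in siMITF cells). An adjusted p under 0.05 was reached by 1 of the 6 in siCTRL and 0 in siMITF cells, against 12.9% and 20.2% of all tested genes. SLC16A10, an aromatic amino acid transporter, was lower with IFNγ in siCTRL cells by -0.60 (limma adjusted p = 0.0138). With siMITF, SLC7A8 and SLC1A5, both neutral amino acid transporters, rose by 1.58 and 1.23 without IFNγ (adjusted p = 5.376e-07 and 2.592e-08), and SLC16A10 fell by 1.33 (adjusted p = 1.234e-05). With IFNγ present, the siMITF differences of SLC1A5 and SLC7A8 were 1.24 and 1.00 (adjusted p = 2.976e-08 and 3.010e-05), the second at the limit of size, and those of SLC16A10 and SLC7A5, the main tryptophan carrier, were -0.78 and -0.56 (adjusted p = 0.00101 and 0.00845). Without IFNγ the siMITF difference of SLC7A5 was -0.46 (limma adjusted p = 0.0240). SLC7A5 was still at 140 to 206 TPM in the siMITF+IFNγ libraries, beside 222 to 299 TPM in siCTRL+IFNγ.

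AHR, the receptor activated by kynurenine and other ligands, was at 28.8, 38.6 and 33.5 TPM in siCTRL and 85.6, 103 and 87.4 TPM in siMITF. It rose with siMITF by 1.43 without and 1.52 with IFNγ (adjusted p = 5.215e-05 and 3.383e-05), and it was the one gene called with siMITF of the 6 tested in its list. CYP1A1, its best-known target, was at 15.6, 19.8 and 17.8 TPM in siCTRL, 37.0, 47.9 and 43.5 in siCTRL+IFNγ, 20.0, 20.9 and 17.1 in siMITF, and 27.4, 29.2 and 25.9 in siMITF+IFNγ. The siCTRL+IFNγ libraries were the highest and did not overlap the siMITF+IFNγ libraries. CYP1A1 rose with IFNγ by 1.22 in siCTRL cells (SE 0.12, adjusted p = 9.725e-06) and differed by 0.49 in siMITF cells (SE 0.12, adjusted p = 0.0109). Under IFNγ the siMITF difference was -0.61 (adjusted p = 0.00143). Its interaction was -0.73 (SE 0.17, adjusted p = 0.0685, or 0.00820 when replicate number was a block), under the required size.

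**Figure D4:**
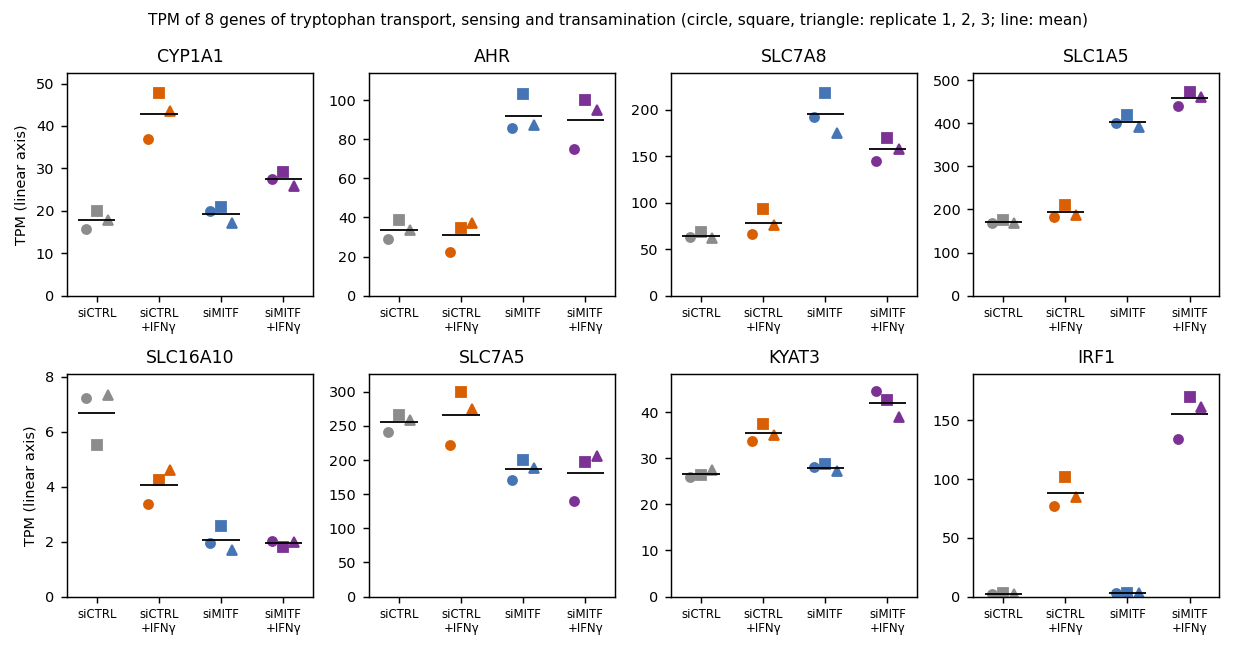
TPM (linear axis from 0, a separate range for each gene) of 8 genes of tryptophan transport, sensing, transamination and IFNγ signalling in the 12 libraries, with circle, square and triangle for replicates 1, 2 and 3 and a line at the mean. CYP1A1 is highest in siCTRL+IFNγ, AHR, SLC7A8 and SLC1A5 are high in all siMITF libraries, and IRF1 is at 134 to 170 TPM in siMITF+IFNγ against 76.8 to 102 TPM in siCTRL+IFNγ.

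The 3 other kynurenine pathway genes that were tested, AFMID, KYAT3 and GOT2, held no call (limma, all 3 with an unadjusted p under 0.05 in some comparison). KYAT3 was higher with IFNγ by 0.40 in siCTRL and by 0.57 in siMITF cells (adjusted p = 0.00328 and 1.655e-04). In the combination it was higher by 0.64 (adjusted p = 2.034e-05). AFMID, the formamidase after the entry step, was lower in the combination by -0.65 (adjusted p = 5.213e-04). Of 8 NAD synthesis genes, 6 were tested and none was called (5 with an unadjusted p under 0.05 in some comparison). In the combination NAMPT, NMRK1 and NMNAT2, which act in NAD salvage, differed by 0.73, 0.74 and 0.77 (adjusted p = 0.00322, 2.381e-04 and 0.0131), and NMRK1 differed by 0.51 with siMITF under IFNγ (adjusted p = 0.00495). The 6 genes of the GCN2 response to amino acid shortage, which ATF4 leads, also held no call (all 6 with an unadjusted p under 0.05 in some comparison). The share of all tested genes with such a p in some comparison was not computed. In the combination alone 44.5% of all tested genes had an adjusted p under 0.05. For the GCN2 response, 4 of the 6 genes were lower in the combination with an adjusted p under 0.05, beside 2995 of 12773 tested genes. The 4 were DDIT3 (-0.55, adjusted p = 0.0151), ASNS (-0.48, adjusted p = 0.0214), TRIB3 (-0.36, adjusted p = 0.00905) and ATF4 (-0.30, adjusted p = 0.0170), while EIF2AK4, the gene of GCN2 itself, was higher (0.33, adjusted p = 0.00891). ATF4 was lower with IFNγ by -0.29 in siCTRL and -0.38 in siMITF cells (adjusted p = 0.0497 and 0.00976), and SESN2 was higher with siMITF by 0.66 without and 0.46 with IFNγ (adjusted p = 0.00555 and 0.0367). The enzymes of the serotonin, melatonin and indole branches did not enter the test, and IL4I1, a phenylalanine and tryptophan oxidase, was at 0.137 to 0.372 TPM in siCTRL, 0.742 to 1.09 in siCTRL+IFNγ, 0.248 to 0.402 after siMITF and 1.28 to 1.40 with both.

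Among 4 named regulators of IDO1, IRF1, a transcription factor that binds the ISRE, was at 2.31, 2.83 and 2.33 TPM in siCTRL, 76.8, 102 and 85.1 in siCTRL+IFNγ, 3.35, 2.87 and 3.01 in siMITF, and 134, 170 and 162 in siMITF+IFNγ. It rose with IFNγ by 4.66 in siCTRL and 5.26 in siMITF cells (limma adjusted p = 2.190e-11 and 5.169e-12). Under IFNγ its siMITF difference was 0.82 (adjusted p = 2.276e-04), in the same direction as that of IDO1, and its interaction was 0.59 (adjusted p = 0.210). SOCS3, which targets IDO1 protein for degradation, rose with IFNγ by 2.75 and 2.37 (adjusted p = 5.680e-09 and 2.223e-08) and was higher with siMITF alone by 0.60 (adjusted p = 0.00279). IRF8, a partner of IRF1, was listed at 0 in the 6 libraries without IFNγ and was at 0.930 to 1.92 TPM in the 6 with it. BIN1, described as a repressor of IDO1, held no call.

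Across the 12 libraries the tested genes whose log2(TPM + 1) values were most like those of IDO1 were GBP1, GBP5, IFI27, APOL6 and IFI44L, with Pearson r from 0.9988 to 0.9994 over 11693 genes. WARS1 came 20th (r = 0.995) and AADAT 185th (r = 0.946), while TDO2 had an r of 0.093 and KYAT1 of -0.752. For WARS1, NLRC5 (r = 0.9986), IFI35, C2 and PML (r = 0.9974) were among the 5 most alike and IDO1 came 21st. All these values come from the same 12 libraries in 4 conditions.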

How the data were processed

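RNA from 12 cultures of 624Mel cells (4 conditions with 3 libraries each) was sequenced after TruSeq RNA v2 library preparation. The authors trimmed reads with Trimmomatic 0.39 and used kallisto with the Ensembl transcriptome of GRCh38 for quantification, and the deposited values are TPM per Ensembl gene ID. The Ensembl release and the tool that summed transcripts to genes are not given in the sources used here. The authors tested counts with DESeq2 1.26.0, and those counts were not used here. TPM hold no depth and are shares, so a rise of abundant transcripts lowers the values of others.

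TPM were transformed to log2(TPM + 1) and fitted with limma 3.58.1 in R 4.3.3, using a coefficient for each of the 4 conditions, moderated variances with a trend on intensity, two-sided tests and Benjamini-Hochberg adjustment. The 12773 gene IDs tested averaged 2 TPM or more in some condition. A gene was called if its adjusted p was under 0.05, its absolute log2 difference at least 1 and its mean 2 TPM or more in either compared condition, and for the interaction with an adjusted p under 0.05 and an absolute value over 1. The fit was tested on simulated data. Symbols and positions are from GENCODE 44, and promoter windows from RefSeq (GRCh38.p14). Python 3.11.15 (pandas 2.3.3, numpy 2.4.6, matplotlib 3.10.9) was used for tables and plots.

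The methods state at least 3 independent biological replicates for all experiments. Same-numbered libraries of different conditions deviated together (18 pairs, correlations 0.10 to 0.63, median 0.28, against a median of -0.20 for other pairs). Deviations within a condition sum to 0, so the median of the other pairs is not independent of the first. The numbers were taken as a possible pairing, which the main fit left out, and blocking on the number was an alternative. Other alternatives were pseudocounts of 0.1 and 0.5, no minimum level, an overall mean of 5 TPM or more, quantile normalization, median centring, no trend, only the conditions compared, TPM summed by symbol, differences from mean TPM, and each library left out. The 10 genes and all lists were chosen with earlier results of these data known. Named were all 10 genes, list genes that were called or had an adjusted p under 0.05 with an absolute difference of at least 0.5, and the 5 genes most like IDO1 and WARS1, of which 1 is not reported here.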

Additional observations from a re-analysis of the deposited data

How the results depend on the processing

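The number of the 10 genes called was the same or nearly the same in 135 of 137 refits over the 6 comparisons. The other 2 came when an overall mean of 5 TPM or more was required. There 0 members were called with siMITF without and with IFNγ because TDO2 no longer entered the test. The combination count also changed in that fit, where IDO1, AADAT and WARS1 were called without TDO2. Each library left out in turn gave 3 called genes for IFNγ in siCTRL and in siMITF cells, 1 for siMITF without and with IFNγ, 4 in the combination and 0 for the interaction, from lowest to highest. The replicate block left all these counts at 3, 3, 1, 1, 4 and 0 and moved an adjusted p past 0.05 only for the WARS1 and CYP1A1 values given above and for NMNAT2 with siMITF under IFNγ (0.0401), all under the required size. KYAT1 and TDO2 gave no value with that 5 TPM minimum, and the interaction gave none for a fit of only the conditions compared. Over all tested genes the 5 TPM minimum called 245 in place of 377 genes for IFNγ in siMITF cells and 32 in place of 61 for the interaction.

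Direction changed for values that were not called. With a pseudocount of 0.1 the IDO1 interaction was -0.48, and with quantile normalization TDO2 differed by -0.15 for IFNγ in siCTRL cells with an interaction of 0.21. TDO2 for IFNγ in siMITF cells was -0.0816 without siMITF replicate 3 and -0.0625 without siMITF+IFNγ replicate 2, with a range of -0.0816 to 0.113 over the libraries left out. QPRT for siMITF with IFNγ was 0.0148 from mean TPM, 0.0615 and 0.0572 without siCTRL+IFNγ replicates 2 and 3 and 0.213 without siMITF+IFNγ replicate 1, which also gave a QPRT interaction of 0.123. Leaving out libraries gave -0.135 to 0.213 for the first and -0.225 to 0.123 for the second. QPRT for IFNγ in siMITF cells was -0.00931 and -0.0461 without siMITF+IFNγ replicates 2 and 3, in a range of -0.0461 to 0.300. The cause of these changes was not tested. The siMITF difference of IDO1 under IFNγ had adjusted p from 0.00111 to 0.309 over its alternatives. SLC7A8 with siMITF under IFNγ fell below the required size in 5 alternatives, from 0.90 to 0.99. SLC16A10 with siMITF under IFNγ reached -1.02 with a pseudocount of 0.1, and NMNAT2 in the combination reached 1.05 with it and 1.08 without siMITF+IFNγ replicate 1. Depth is unknown, so levels near 0 carry no stated precision.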
